A study of Homo sapiens with 4 samples.

Results

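The region described here is the minus strand of chromosome 11 between 5200000 and 5700000 (GRCh37), which by the rule that chose it runs from the beta-globin genes HBB to HBE1 through the olfactory receptor genes upstream of them. Its members are the peaks with their midpoint in that interval, and they numbered 796 of the 278959 peaks in the 4 lists, or 0.285%. The peaks came from CLIP-seq, in which protein and RNA are crosslinked with ultraviolet light, the protein is immunoprecipitated and the RNA bound to it is sequenced. The protein was SAF-A, also called hnRNP U, and the cells were HCT116, an established human colorectal carcinoma line. The libraries were 2 pull-downs with an antibody to SAF-A and 2 inputs, taken from divided lysates of crosslinked cells and excised at the same size range after electrophoresis. The labels name no treatment, no clone and no separate cultures for the replicates, so the scatter between libraries may be technical. With so few libraries, a p-value here shows mainly whether groups separate or signs agree. It does not measure that scatter.

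SAF-A is an abundant nuclear protein with a domain that binds DNA at its start and an RGG-rich domain that binds RNA at its end, and it is known for associating with chromatin and with RNA still in the nucleus. The beta-globin cluster encodes the beta-like chains of haemoglobin, which are made in red cell precursors under an upstream locus control region. Olfactory receptors are odorant receptors of sensory neurons of the nose, mostly encoded by short genes that lie in clusters. The RefSeq table used here (GRCh38.p14) lists, in this order, HBB, HBD, HBBP1, BGLT3, HBG1, HBG2 and HBE1, followed by OR51B4, OR51B2, OR51B5, OR51B6, OR51M1, OR51Q1, OR51I1, OR51I2 and OR52D1 with pseudogenes between them. The table has 24 genes from HBB to OR52D1, among them 5 protein-coding globin genes, 9 protein-coding olfactory receptor genes and 6 olfactory receptor pseudogenes. The positions of the peaks fit GRCh37 and not GRCh38, since 1214 of 278492 nuclear peaks ended beyond the end of their GRCh38 chromosome and 0 beyond that of GRCh37. The peaks were therefore not assigned to genes, exons or introns, and the gene names in the rule were not checked against them.

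The 2 pull-down lists held 96061 and 111256 peaks and the 2 input lists 29386 and 42256. Read depth is unknown. Each peak has a score given by the authors, a whole number of at least 10 whose meaning is not stated. Ranks were taken within a list. Raw scores of different lists are also printed side by side, subtracted and cut at the same values. Whether the lists share a scale is unknown, so a higher score in a pull-down is not read as a stronger signal.

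The minus strand of the interval listed 306 peaks in pull-down replicate 1 and 373 in replicate 2, against 38 in input replicate 1 and 79 in replicate 2. For every 10000 peaks of its list this came to 31.9 and 33.5 in the pull-downs, against 12.9 and 18.7 in the inputs. The pull-downs averaged 32.7 ± 1.2 and the inputs 15.8 ± 4.1 (SD over 2 libraries of each kind), a ratio of 2.07 and a log2 ratio of 1.05. The interval had been picked for its pull-down peaks without an input peak, so this ratio describes the choice and was not tested. It also turned round with the length of the lists. Among the 29386 best-scoring peaks of each list, 30 and 26 pull-down peaks remained in the interval against 38 and 47 input peaks, a log2 ratio of -0.60. The stretch peaks had low scores, and this shortening removes the low scores of the longer lists, most of all those of the pull-downs. Whether this accounts for the reversed ratio was not tested.

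The peaks formed a compact stretch with a sharp edge on its upstream side. With the interval cut into windows of 10 kb, a window was called dense where each pull-down listed at least 5 peaks, and the stretch was taken as the run of dense windows with no 2 sparse windows in a row. It ran from 5340001 to 5530000, which is 190 kb, and 18 of its 19 windows were dense. In the whole genome, 0.281% of the 10 kb windows with any peak on a strand were dense, and a stretch chosen for its density had to stand out by that measure. It held 296 and 355 pull-down peaks, against 37 and 77 input peaks, and between 95.2% and 97.5% of the members in each library. Its only sparse window, from 5430001 to 5440000, had 4 peaks in each pull-down and 0 in each input. No window inside it was empty in the pull-downs.

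The upstream edge, which on the minus strand is the one at the higher coordinate, lay at nearly the same base in all 4 libraries. The last peak ended at 5526589 and 5526641 in the pull-downs, against 5526414 and 5526542 in the inputs. Beyond it the next minus-strand peak came after 47.8 and 47.7 kb in the pull-downs, against 187.7 and 187.6 kb in the inputs. The other side faded out. Downstream of the dense run, the 50 kb from 5290001 to 5340000 held 9 and 14 pull-down peaks, against 1 and 2 input peaks. The values next to the threshold were 5 and 8 pull-down peaks in the first dense window, from 5340001, and 2 and 3 in the window before it. The lowest 90 kb of the interval, up to 5290000, held 0 and 1 pull-down peaks and 0 in either input. Where the minimum was 3 peaks the stretch began at 5310001 and was 220 kb long. With a minimum of 10 it began at 5400001 and was 130 kb long. The upper border was 5530000 with each of these minimums. In the better-scoring 50% of each list the dense run was from 5420001 to 5480000 and did not reach that border.

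**Figure D1:**
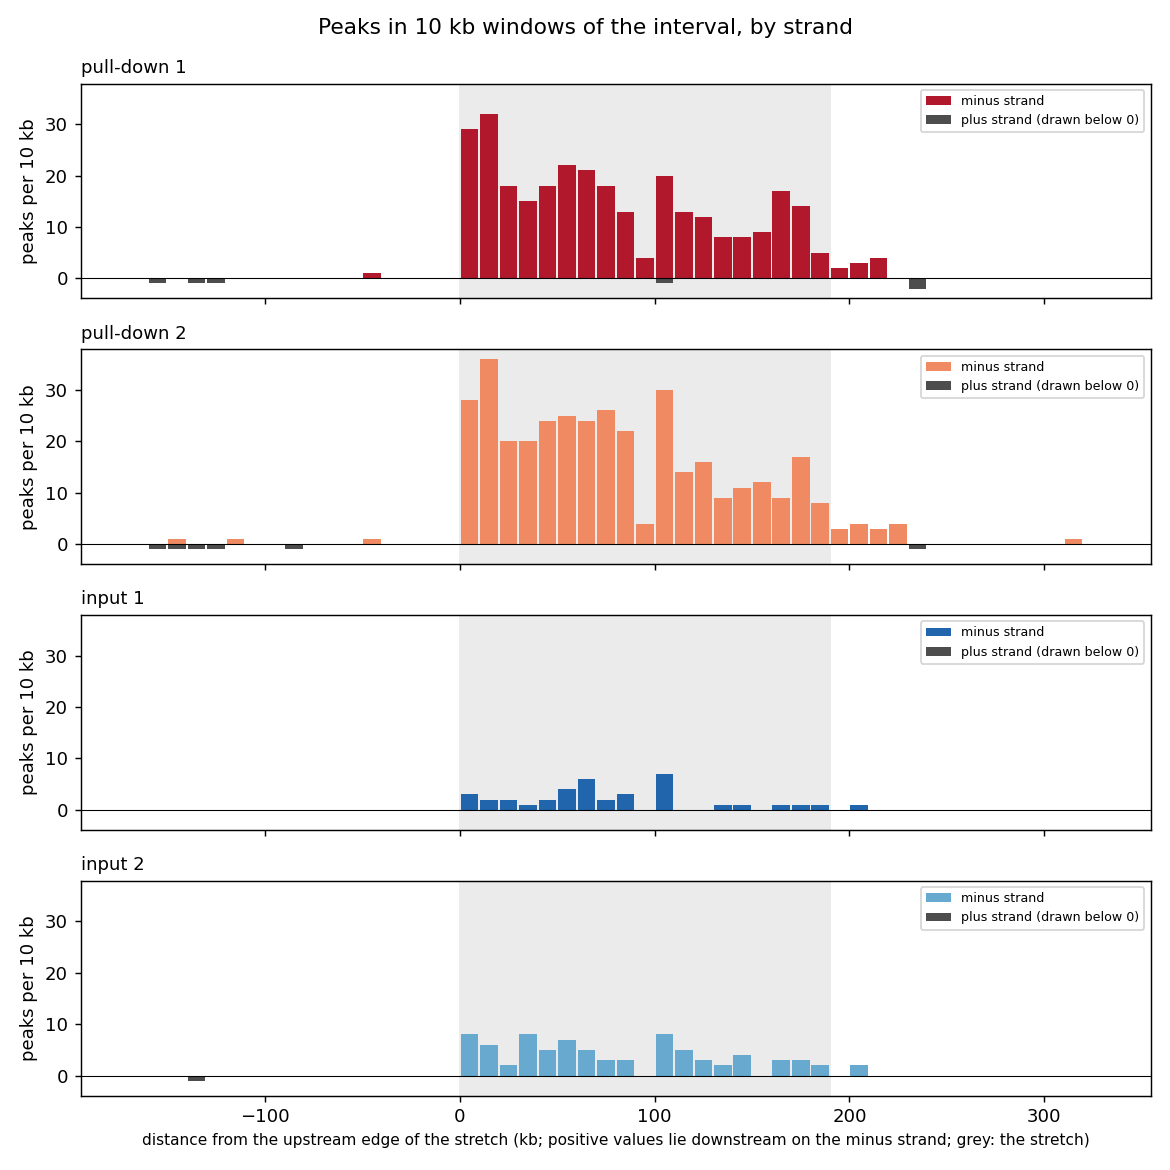
Peaks per 10 kb window in pull-down 1, pull-down 2, input 1 and input 2, with minus-strand peaks drawn upward and plus-strand peaks downward, against the distance in kb from the upstream edge of the stretch (grey, 190 kb). The 2 windows nearest that edge hold 28 to 36 peaks in the pull-downs, next to 30 in the window from 5420001 in pull-down 2, and the plus strand is nearly empty.

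Inside the stretch the pull-down peaks were dense next to the upstream edge. The window from 5510001 to 5520000 had the most, with 32 and 36 pull-down peaks against 2 and 6 input peaks. The window at the edge, from 5520001 to 5530000, had 29 and 28 in the pull-downs against 3 and 8 in the inputs. Both windows held more pull-down peaks than any other window in each replicate, except that in replicate 2 the window from 5420001 had 30. That window, from 5420001 to 5430000, had 20 and 30 pull-down peaks against 7 and 8 input peaks, the highest input count of the stretch. The windows from 5470001 and from 5460001 followed, with 22 and 25 and 21 and 24 pull-down peaks, against 4 and 7 and 6 and 5 input peaks.

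The 9 windows of the upstream side, from 5440001, held 186 and 225 pull-down peaks against 25 and 47 input peaks. The 9 windows of the downstream side, up to 5430000, held 106 and 126 pull-down peaks against 12 and 30 input peaks. The upstream side thus had 63.7% and 64.1% of the peaks of these 18 windows in the pull-downs, against 67.6% and 61.0% in the inputs. Across the 19 windows, Spearman's rho between coordinate and number of peaks was 0.71 and 0.72 in the pull-downs, against 0.55 and 0.54 in the inputs. These are descriptions, since windows of 1 library share its depth and neighbours share a region. The number fell off with distance from the edge in pull-downs and inputs alike. The share on the upstream side overlapped between the 2 kinds of library, and the rho was higher in both pull-downs.

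Of the 18 dense windows, 15 had more peaks per 10000 listed in each pull-down than in either input. Over all 341 dense windows of the genome the share was 72.7%, and since dense windows are chosen on pull-down peaks nothing is read from either number. Windows without an input peak in either replicate were those from 5370001, with 9 and 12 pull-down peaks, and from 5430001.

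The plus strand of the same interval was almost empty. It held 6 peaks in each pull-down, against 0 and 1 in the inputs, so that 98.1% (95% Wilson interval 95.9 to 99.1) and 98.4% (96.6 to 99.3) of the pull-down peaks of the interval lay on the minus strand, against 100% (90.8 to 100) and 98.8% (93.3 to 99.8) of the input peaks. The intervals cover counting error only. In the whole lists 49.5% to 50.3% of peaks were on the minus strand. Within the 190 kb of the stretch, pull-down replicate 1 had 1 plus-strand peak and the other 3 libraries had 0. The strand was named by the rule, so this contrast is a description. It was also common among dense windows. No pull-down peak lay opposite 17 of the 18 dense windows of the stretch, and 77.4% of the 341 dense windows of the genome had none.

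The few plus-strand peaks lay outside the stretch in all but 1 case. Both pull-downs shared 4 plus-strand sites in the interval. The best-scoring was 12 bases wide, from 5292947 to 5292958, in the thin downstream part, with scores of 41 and 52. The others, from 5658086 to 5658102, from 5687591 to 5687610 and from 5660898 to 5660919, lay beyond the upstream edge. Of the 4, only the last overlapped an input peak, in replicate 2.

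Peaks found in both pull-downs formed 201 sites on the minus strand, after merging peaks that overlapped by at least 1 base. Of these, 145 overlapped no peak of either input and 56 overlapped at least 1, of which 19 overlapped both. The share with an input peak was 27.9% (95% Wilson interval 22.1 to 34.4), and 43.0% over all 62968 sites of both pull-downs in the genome. The first share depended on input replicate 2, the longer list, since without it only 12.4% of the sites had an input peak and without input replicate 1 it was 24.9%. The members were chosen for sites free of input, so the lower share is not a finding.

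The pull-down replicates shared sites about as often here as elsewhere. Of the 306 peaks of pull-down replicate 1, 66.3% (60.9 to 71.4) overlapped a peak of replicate 2, and 65.6% of that whole list did. Of the 373 peaks of pull-down replicate 2, 55.2% (50.2 to 60.2) overlapped a peak of replicate 1, with 56.7% in the whole list. In the inputs the shares were 71.1% (55.2 to 83.0) of replicate 1 in replicate 2 and 35.4% (25.8 to 46.4) of replicate 2 in replicate 1, with 77.7% and 54.1% in the whole lists. The last of these intervals lay below the value of its list, and the other 3 held it.

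Most input peaks overlapped a pull-down peak. A peak of at least 1 pull-down overlapped 37 of the 38 input peaks of replicate 1 (97.4%, 86.5 to 99.5) and 67 of the 79 of replicate 2 (84.8%, 75.3 to 91.1), with 71.0% and 67.7% in the whole input lists. In the other direction, 23.5% (19.1 to 28.6) and 20.6% (16.8 to 25.04) of the pull-down peaks overlapped a peak of either input, with 29.9% and 26.6% in the whole pull-down lists. Where peaks are packed closely a chance overlap is more frequent, and its part in these shares was not tested. The median distance between neighbouring peak midpoints in the stretch was 378 and 301.5 bases in the pull-downs, against 2550.5 and 1632.5 bases in the inputs. Pull-down peaks covered 4.23% and 4.28% of the bases of the stretch, against 1.26% and 2.08% for input peaks.

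The best-scoring site of the interval was listed in all 4 libraries. It was 83 bases wide, from 5423135 to 5423217, and scored 94 and 113 in the pull-downs, against 21 and 43 in the inputs. It ranked 4647 and 3415 by score in the pull-down lists. The next sites of all 4 libraries were 127 bases wide, from 5328968 to 5329094, with scores of 67 and 76 in the pull-downs against 11 and 24 in the inputs, and 56 bases wide, from 5460322 to 5460377, with 53 and 61 against 23 and 20. The site of 127 bases lay in the thin downstream part, outside the dense run. Each of these 3 sites was a single peak in each pull-down.

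The input-free sites scored lower. The best by mean rank was 101 bases wide, from 5456883 to 5456983, with pull-down scores of 40 and 42 and ranks of 19890 and 20621. A second site of 62 bases lay close by at a lower coordinate, from 5456433 to 5456494, with scores of 27 and 41. They were followed by sites of 42 bases (5471737 to 5471778), 40 bases (5468969 to 5469008) and 106 bases (5385865 to 5385970), with mean ranks of 29253, 29997 and 30337. The widest input-free sites were 129 bases (5333392 to 5333520), 114 bases (5498584 to 5498697) and the 106 bases just named. Most peaks of the stretch had low scores for their lists. The median score of its peaks was 14 and 15 in the pull-downs, against 11.5 and 14 in the inputs, while the medians of the whole lists were 19 and 19 in the pull-downs, against 17 and 17 in the inputs. On a scale where the middle peak of a list stands at 50, the median peak of the interval stood at 31.6 and 37.3 in the pull-downs, against 19.9 and 38.4 in the inputs. The mean distance from 50 was -18.2 ± 8.5 (SD over 4 libraries), below 0 in 4 of 4, with an exact sign-flip permutation p of 0.125 (two-sided, and the lowest that 4 libraries can give) and 0.15 after Benjamini-Hochberg adjustment over 6 such tests. The 6 include contrasts defined after their values had been seen, for which no p-value is printed. Libraries of the same kind share a protocol and possibly a lysate, so the 4 are not fully independent.

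Peak width separated the pull-downs from the inputs in the interval. Width itself had not been used to choose it, but the lack of an input peak had. The median width was 30 bases in the input-free sites and 42 bases in those with an input peak. The width contrast may therefore not be independent of the choice. The median width was 22 and 18 bases in the pull-downs, against 58 and 46 bases in the inputs. Peaks of 50 bases or more, called wide here, made up 13.7% (95% Wilson interval 10.3 to 18.03) and 8.85% (6.37 to 12.2) of the pull-down peaks, against 55.3% (39.7 to 69.9) and 44.3% (33.9 to 55.3) of the input peaks. The pull-downs averaged 11.3% ± 3.45 and the inputs 49.8% ± 7.75 (SD over 2 libraries of each kind), a difference of -38.5 percentage points. The groups did not overlap. A two-sided exact permutation test gave p = 0.333, which 2 against 2 libraries cannot go below, and 0.5 after Benjamini-Hochberg adjustment over 6 tests. Very narrow peaks, of at most 15 bases, made up 32.7% and 41.8% of the pull-down peaks, against 0 of 38 and 1 of 79 input peaks. By the rule of 3 (3 in 38, an approximate 95% limit and not a Wilson interval), the count of 0 allows a share of up to 7.89%. Peaks of 16 to 49 bases made up 53.6% and 49.3% in the pull-downs, against 44.7% and 54.4% in the inputs, and here the groups overlapped.

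The lower share of wide peaks in pull-downs than in inputs was not particular to this interval. Of 75 windows of 100 kb on 1 strand with at least 10 peaks in each pull-down and 5 in each input, 61.3% had a wide share in each pull-down under that of either input, with a median difference of -20.0 percentage points. All 3 such windows of the interval did so, with differences of -55.3, -33.6 and -39.9 percentage points from the lowest to the highest coordinate. They stood 10, 27 and 20 from the most negative of the 75. When peaks scoring 10 to 14 were taken alone, the difference in the interval was -38.4 percentage points. In lists of equal length it was 0.57 percentage points (exact p of 1), with 60% and 53.8% wide among the 30 and 26 pull-down peaks that were left, against 55.3% and 57.4% of the 38 and 47 input peaks.

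Against the rest of its own list, the interval had a larger share of wide peaks in both inputs, and its pull-downs took no settled direction. In the rest of the lists wide peaks made up 16.2% and 19.3% in the pull-downs, against 22.1% and 26.5% in the inputs. The difference, interval minus rest, was -2.52 and -10.4 percentage points in the pull-downs, against 33.2 and 17.8 in the inputs. The value of the rest lay inside the interval of pull-down replicate 1 given above and outside those of the other 3 libraries. The mean over all 4 was 9.50 (exact sign-flip p of 0.5), and 1.61 once input replicate 1 was left out. With wide set at 30 bases the differences were 10.8 and 1.21 in the pull-downs, against 54.0 and 50.04 in the inputs. In the better-scoring 50% of each list they were 25.3 and 8.25 in the pull-downs, against 66.8 and 43.4 in the inputs, where input replicate 1 had 6 peaks. In lists of equal length they were 50.4 and 43.4 in the pull-downs, against 33.2 and 33.5 in the inputs. The negative sign in the pull-downs was thus not seen under any of these 3 settings.

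Peaks of 16 to 49 bases made up a larger share of the interval than of the rest in 4 of 4 libraries, by 24.2 and 19.1 percentage points in the pull-downs and by 20.99 and 28.5 in the inputs. The mean difference was 23.2 ± 4.1 (SD, n = 4). This class and the very narrow one were defined after widths had been seen, so no test is given for either. Peaks of at most 15 bases were rarer than in the rest in 4 of 4 libraries, with a mean difference of -32.7 percentage points.

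**Figure D2:**
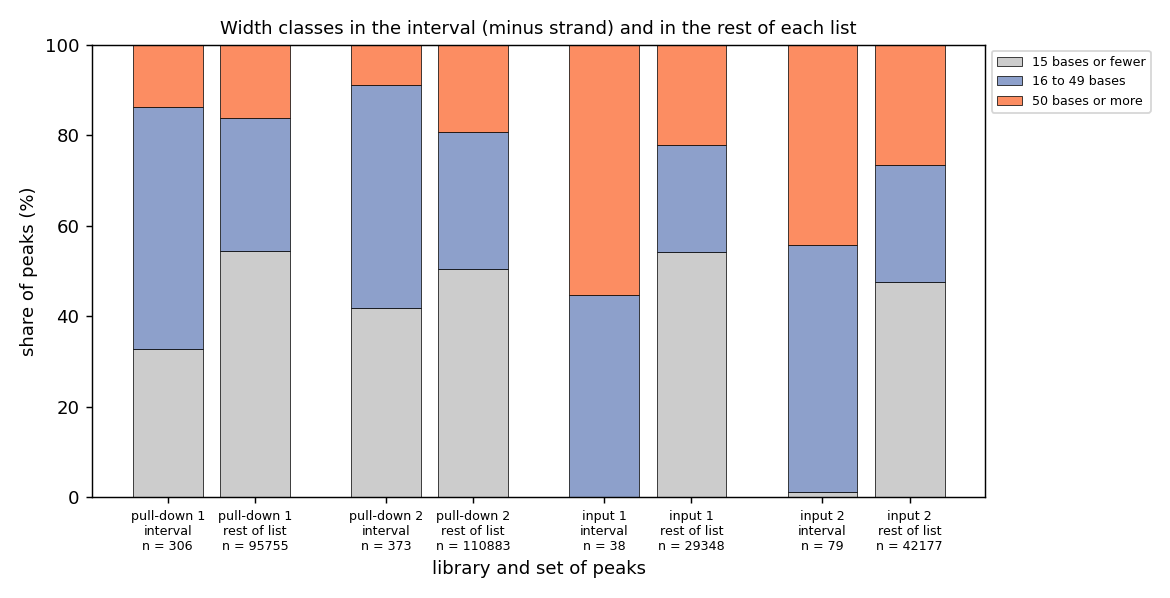
Share of peaks (%) of at most 15 bases, of 16 to 49 bases and of at least 50 bases, for the minus strand of the interval and for the rest of the list in each of the 4 libraries, with the number of peaks under each bar. The middle class is larger in the interval than in the rest in all 4 libraries, and the very narrow class is at 0 and 1 peaks in the inputs.

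In the pull-downs, width fell toward the upstream edge while density rose. In windows of 100 kb from the lowest to the highest coordinate (from 5300001, 5400001 and 5500001), the median width in pull-down replicate 1 was 34, 23 and 13 bases, and in replicate 2 it was 31, 18 and 11 bases. In input replicate 1 it was 100, 49 and 52 bases, and in input replicate 2 it was 69, 43 and 39.5 bases. The last of these windows holds peaks from its first 30 kb almost alone, since the stretch ends there. In the pull-downs the highest of these windows thus had the narrowest peaks and the lowest the widest. In input replicate 1 the last 2 medians did not follow that order.

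The wide class showed the same order in the pull-downs. In pull-down replicate 1, 22 of 70, 19 of 156 and 1 of 80 peaks were wide, or 31.4% (21.8 to 43.0), 12.2% (7.9 to 18.2) and 1.25% (0.22 to 6.7). In pull-down replicate 2 it was 18 of 80, 14 of 205 and 1 of 85 peaks, or 22.5% (14.7 to 32.8), 6.8% (4.1 to 11.1) and 1.18% (0.21 to 6.4). In the inputs it was 5 of 6, 12 of 25 and 4 of 7 peaks in replicate 1 and 13 of 16, 18 of 47 and 4 of 16 in replicate 2. At each of the 3 positions both pull-downs had a smaller wide share than both inputs. Spearman's rho between coordinate and width over single peaks was -0.51 (n = 306) and -0.49 (n = 373) in the pull-downs, against -0.14 (n = 38) and -0.42 (n = 79) in the inputs. The score did not follow the coordinate, with rho of -0.05 and 0.01 in the pull-downs and of -0.09 and -0.10 in the inputs. These are descriptions across peaks, which share a library and a region.

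**Figure D3:**
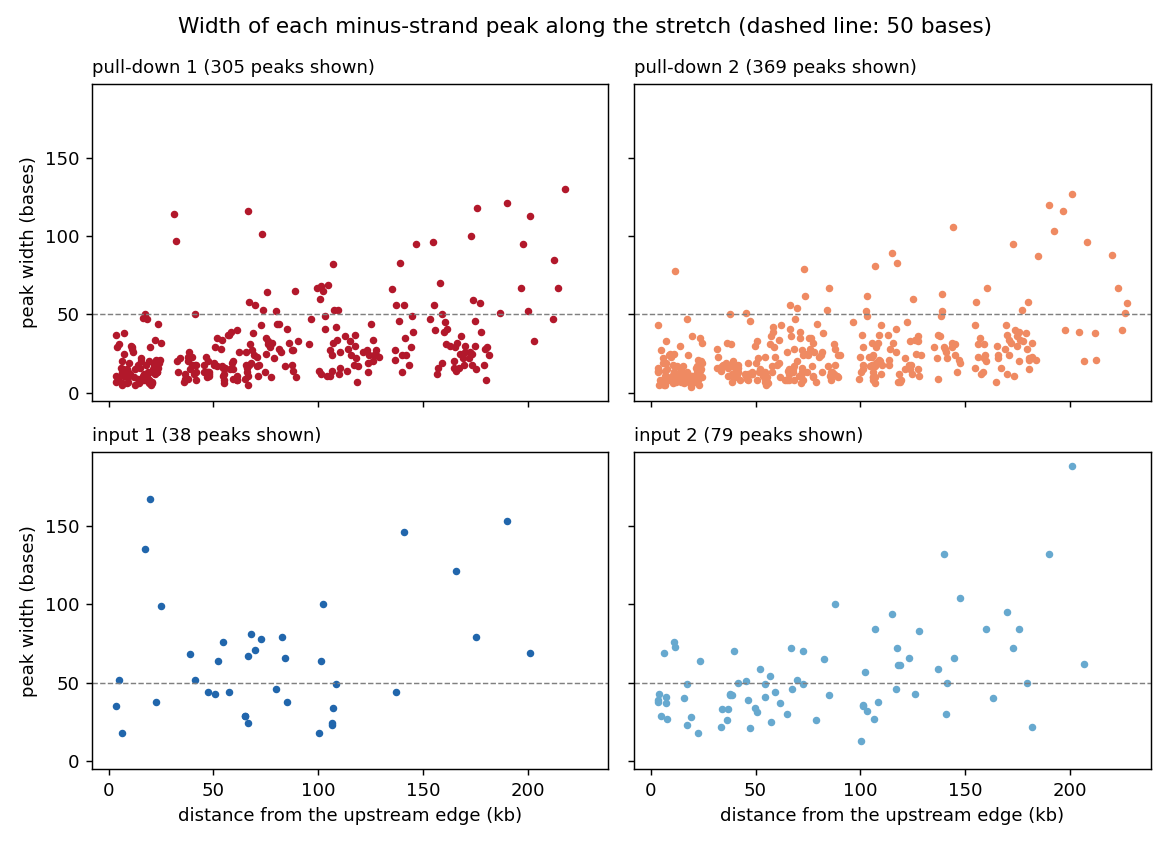
Width in bases of each minus-strand peak against its distance in kb from the upstream edge of the stretch, for pull-down 1, pull-down 2, input 1 and input 2, with a dashed line at 50 bases. In the pull-downs nearly all peaks within the first 30 kb lie under the line, and wide peaks become more frequent downstream.

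Wide peaks had the higher median score in the interval and the lower one in the rest of the lists. In the interval, wide peaks had a median score of 27 and 30 in the pull-downs, against 13 and 15 in the inputs, and peaks under 50 bases had 14 and 14 in the pull-downs, against 11 and 12 in the inputs. In the rest of the lists, wide peaks scored 14 and 14 in the pull-downs, against 14 and 15 in the inputs, and peaks under 50 bases scored 21 and 20 in the pull-downs, against 18 and 17 in the inputs. The difference between wide and other peaks, interval minus rest, was 20 and 22 score units in the pull-downs, against 6 and 5 in the inputs. It was above 0 in 4 of 4 libraries. This contrast was chosen after its values had been seen, so no test is given. Spearman's rho between score and width in the interval was 0.65 and 0.62 in the pull-downs, against 0.42 and 0.36 in the inputs. In the rest of the lists it was near 0, at 0.083 and 0.0094 in the pull-downs, against 0.094 and 0.040 in the inputs.

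High scores were rare and mostly wide. Of the pull-down peaks of the interval, 5 of 306 and 9 of 373 scored 50 or more, which is 1.6% and 2.4%, against 15.4% and 14.8% of the whole pull-down lists. All 5 of those in replicate 1 and 77.8% of the 9 in replicate 2 were wide, against 9.4% and 10.3% of peaks with such scores in the whole lists. No input peak of the interval scored 50 or more. Peaks under 50 bases, which make up most of the scores of 50 or more in the whole pull-down lists, were thus nearly lacking at such scores here.

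**Figure D4:**
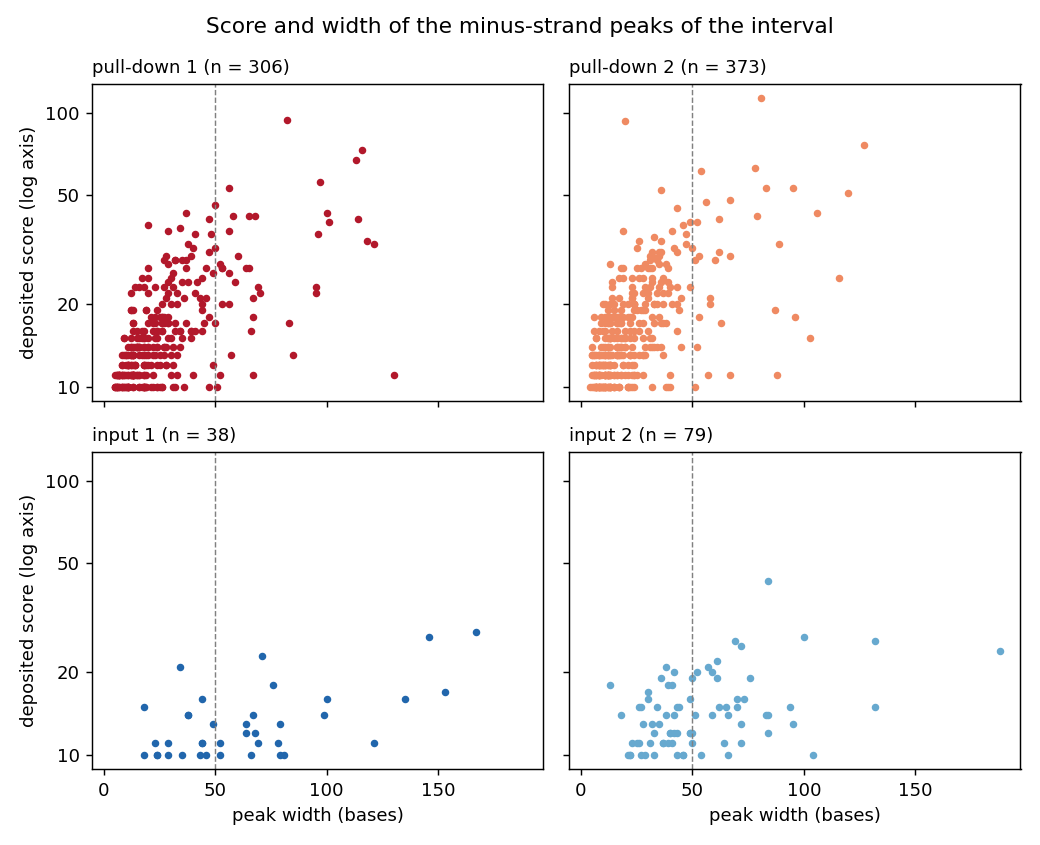
Score given by the authors (log axis, at least 10) against width in bases for each minus-strand peak of the interval, in pull-down 1, pull-down 2, input 1 and input 2, with a dashed line at 50 bases. In the pull-downs the scores climb with width (rho of 0.65 and 0.62), and the top of the plot holds few narrow peaks.

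Where a peak of 1 pull-down overlapped a single peak of an input, and the reverse, their widths could be compared at the same place. Pull-down replicate 1 had the narrower peak in 20 of 30 pairs with input replicate 1 and in 34 of 48 with input replicate 2. Pull-down replicate 2 had the narrower peak in 22 of 27 and in 44 of 57 pairs. The medians in these 4 sets were 27 to 37 bases for the pull-down peaks and 42 to 52 bases for the input peaks. Between the 2 pull-downs, replicate 1 was narrower in 80 and wider in 100 of 194 pairs, with medians of 24 and 23 bases. Exact borders were seldom shared even between the pull-downs, where 40 pairs had the same start, 48 the same end and 9 both.

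Among the 161 runs of dense windows found by the same rule on all chromosomes and both strands, this stretch held the most pull-down peaks, with 651 over both replicates, and tied for the greatest length at 190 kb. The interval had been picked for its pull-down peaks without an input peak, so nothing is read from these ranks. The runs that followed by number of peaks were chromosome 2 plus strand (220550001 to 220740000, 370 peaks, 190 kb), chromosome 12 plus strand (66210001 to 66340000, 355 peaks, 130 kb) and chromosome 9 minus strand (21510001 to 21590000, 284 peaks, 80 kb). The mean number of pull-down peaks per 10 kb was 17.1 in this stretch and 9.7, 13.7 and 17.8 in the other 3. Its log2 ratio of pull-down to input, at 1.03, was lower than their values of 2.30, 1.51 and 1.20. Input peaks numbered 37 and 77 in this stretch, against 6 and 22, 13 and 32, and 14 and 30.

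The width contrast appeared in all 4 runs. Wide peaks made up 11.8% and 7.0% of the pull-down peaks in this stretch, against 54.1% and 42.9% of its input peaks, a difference of -39.0 percentage points. In the other 3 runs the difference was -72.9, -54.3 and -35.9 percentage points. The positive relation of score and width in the pull-downs was also found in each of them, with rho of 0.67 and 0.69 in this stretch and of 0.52 to 0.67 in the others. The rank correlation with distance from the upstream end was stronger here than in the other 3 runs in both pull-downs and in input replicate 2. In input replicate 1 it was not. Spearman's rho between distance downstream and width was 0.47 and 0.44 in the pull-downs of this stretch, and between 0.04 and 0.21 in those of the other 3. For the number of peaks per window it was -0.71 and -0.72 here and between -0.32 and 0.05 there. In the inputs the rho for width was 0.12 and 0.39 here, and 0.38 and 0.33 in the chromosome 12 run, 0.17 and 0.32 in the chromosome 9 run and -0.20 and 0.10 in the chromosome 2 run. For input peaks per window it was -0.55 and -0.54 here, and -0.58 and -0.43, 0.50 and 0.29, and 0.42 and 0.20 in those 3 runs in the same order. These differences between runs were not tested, and the runs differ in the number of windows, from 8 to 19. The input values for width in the other 3 runs rest on 6 to 32 peaks.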

How the data were processed

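Peaks were measured by CLIP-seq in 2 pull-down and 2 input libraries of HCT116 cells. The authors deposited 1 peak list per library with positions, a strand and a score. The score is deposited by the authors without a definition. Per the submitters' processing notes, STAR, featureCounts and GRCh38 were used, and which program called the peaks, and at what threshold, is not given in the sources used here. Positions are written 1-based and taken as GRCh37, from chromosome lengths of general knowledge. Samples were grouped by their titles.

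Peaks were placed by midpoint in 10 kb windows and taken as shared where they overlapped by 1 base or more, strand included (Python 3.11.15, pandas 2.3.3, SciPy 1.17.1). Shares are per 10000 listed peaks. Tests were two-sided exact permutation tests over libraries, which cannot fall below 0.333 for 2 against 2 or 0.125 for 4 sign flips. The window map was also run on simulated lists with known borders, where peaks were spread evenly between abrupt ends. The real stretch fades out downstream, so that run says nothing about its downstream border.

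The members, lists and tests were chosen with earlier results of these data known. Windows were named by number of pull-down peaks, sites by mean rank, width or presence in all lists. The 100 kb width comparison, the 3 width classes and the score by width contrast were added after values had been seen. Alternatives were other score filters, list lengths, overlaps, window settings and widths, and leaving out each library. No genome of this build was used, so no sequence is shown.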

Additional observations from a re-analysis of the deposited data

Results flagged for a closer look

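The share of wide peaks in the interval moved in opposite directions in the 2 kinds of library when set against the rest of the same list. It was lower than in the rest in both pull-downs and higher in both inputs, which is what called for a closer look. The mean difference was -6.48 percentage points in the pull-downs, against 25.5 in the inputs, so that the groups differed by -31.96 percentage points. An exact permutation test (two-sided) gave p = 0.333, which 2 libraries against 2 cannot go below. The opposite directions depended on the limit and on the score. With wide set at 30 bases, in the better-scoring 50% of each list and in lists of equal length, the difference from the rest was above 0 in 4 of 4 libraries. The input values rest on 38 and 79 peaks.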

How the results depend on the processing

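In the better-scoring 50% of each list the log2 ratio of pull-down to input was 1.55, the difference in minus-strand share was -4.07 percentage points, 47 sites were free of input, 21.7% of sites had an input peak and the stretch was 60 kb long, from 5420001 to 5480000, short of the upstream edge. In lists of equal length the log2 ratio was -0.60, the difference in minus-strand share -5.74 percentage points and the difference in wide share 0.57 percentage points. There, 2 sites were free of input, 85.7% of 14 sites had an input peak, and no window was dense, so no length was obtained. Both settings leave fewer peaks by construction. Among peaks under 50 bases the log2 ratio was 1.71 and 14.01% of sites had an input peak. That share was 17.5% where peaks had to overlap by 50% of each, and 12.4% to 24.9% without one input. The stretch was 220 kb and 130 kb long with minimums of 3 and 10 peaks and 200 kb with windows of 20 kb. The wide share of interval minus rest was -6.48 in the pull-downs alone, and its mean over 4 libraries, 9.50 as reported, was 35.9 in the better-scoring 50%, 40.1 in lists of equal length and 29.0 with a limit of 30 bases. The causes of the changes under these settings were not tested. With the replicate number as a block, the difference in wide share was -38.5 percentage points with an exact p of 0.5, the lowest for 2 pairs. The numbers were not taken as pairs, since the deviations of same-numbered libraries correlated at 0.09 over 3231 regions of 1 Mb. No test here could reach 0.05 under any setting, so p-values say nothing about stability. Read depth is unknown, and single windows of the inputs rest on 0 to 8 peaks.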
